A study of Rattus norvegicus with 15 samples.

Results

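Glutamate receptor subunits, their auxiliary subunits, the vesicular glutamate transporters and the scaffold proteins of the postsynaptic density were compared between the Wistar audiogenic rat (WAR) and the Wistar rat in the inferior colliculus, a midbrain relay of the auditory pathway. The set held 37 of 14506 measured genes, chosen by name: 4 AMPA receptor subunits, 4 AMPA receptor auxiliary subunits, 6 NMDA receptor subunits, 5 kainate receptor subunits, 1 delta receptor subunit, 6 metabotropic receptors, 3 vesicular transporters and 8 scaffolds. Each gene was read from its brightest probe set over the 15 arrays, and all 37 were kept because no filter on low values was applied. Values are log2 intensities, so a difference of 1 is a doubling.

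At an excitatory synapse, vesicular transporters load glutamate into vesicles, and the released transmitter opens AMPA, NMDA and kainate receptors, which are ion channels built of several subunits. Metabotropic receptors act through G proteins, some on the receiving neuron and others on the releasing terminal. Scaffold proteins such as PSD-95 and the Shank and Homer families hold the receptors in place under the postsynaptic membrane. Most neurons that project from the inferior colliculus use glutamate, and sound-evoked seizures of audiogenic rodents are known to start in this nucleus.

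WAR is a strain bred from Wistar rats for seizures evoked by loud sound. Stimulated WAR (WAR S, 5 arrays) and stimulated Wistar rats (Wistar S, 2 arrays) were exposed to high-intensity sound and tissue was taken 60 min later. Naïve WAR (WAR N, 4 arrays) and naïve Wistar rats (Wistar N, 4 arrays) received no sound. All rats were males of 12 weeks, and RNA of the inferior colliculus was hybridised to the Affymetrix Rat Gene array. The strains came from different breeding colonies per the labels, so strain and colony cannot be told apart. The paper's methods instead name the same university animal facility for WAR and Wistar rats. WAR rats convulse to such sound and Wistar rats do not, so in the stimulated arrays strain and seizure cannot be told apart either. The labels were followed for the groups, although the methods give other numbers of stimulated rats and the design text describes every rat as stimulated. Arrays are titled biological replicates, and the sources used here do not say whether each RNA came from 1 rat, so p-values measure the spread between these arrays.

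Stimulated and naïve arrays were normalised apart. Within the 7 stimulated arrays, pairs shared 2675 to 3286 identical values, naïve pairs shared 2 to 13, and no stimulated value was identical to a naïve one. Of the 37 members, 20 (54.1%) had at least 2 of the stimulated arrays at exactly the same value, as had 58.0% of all genes. WAR was therefore compared with Wistar within the stimulated and within the naïve arrays, and no stimulated array was set against a naïve one. The 4 measured tectal markers were 6.99 to 7.82 (*En2*), 10.81 to 11.27 (*Tfap2d*), 6.40 to 7.09 (*Tfap2b*) and 7.73 to 8.87 (*Gata3*) over all arrays. The 3 measured forebrain markers were 5.12 to 5.49 (*Neurod6*), 5.30 to 6.06 (*Neurod2*) and 6.29 to 6.86 (*Bhlhe22*), and levels of different probe sets cannot be ranked against each other. No other tissue was on these arrays, so the marker levels do not check the dissection. *Gata3* was lower in WAR N, by -0.43 (adjusted p = 0.0457 with limma), and the groups overlapped at Wistar N replicate 4 (8.22). In the stimulated arrays its difference had the other sign, 0.40, and did not pass the test (adjusted p = 0.614 with limma). Wistar N replicate 1 stood apart from its group. Its root mean square distance over all genes was 0.525 to 0.586 to the other Wistar N arrays and 0.296 to 0.378 to the WAR N arrays, against 0.242 to 0.286 among the other Wistar N arrays. It was nearer to the WAR N mean than to the mean of the other Wistar N arrays in 21 of 37 members (56.8%) and in 67.3% of all genes. Naïve counts, class medians and called members are given with and without this array.

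In the naïve arrays 8 of 37 members differed between the strains at an adjusted p under 0.05. This is 21.6% of the members, and the same threshold was passed by 20.9% of all genes. The members that were higher in WAR N were the AMPA receptor auxiliary subunit *Cnih2*, the NMDA receptor subunit *Grin3a* and the kainate receptor subunit *Grik1*. The members that were lower in WAR N were the NMDA receptor subunits *Grin1* and *Grin2c*, the vesicular transporter *Slc17a6* and the scaffolds *Dlg3* and *Dlg4*. The background was 11.6% of genes higher and 9.38% lower. Without Wistar N replicate 1 the count was 14 of 37 (37.8%), 6 higher and 8 lower, against 41.1% of all genes, 22.6% higher and 18.5% lower. The count was 4 without Wistar N replicate 2, Wistar N replicate 4, WAR N replicate 1 or WAR N replicate 2, and 5 without Wistar N replicate 3. Over all genes these same exclusions gave 2094, 2308, 2114, 2645 and 1987 called genes, against 3037 with all arrays. *Dlg4*, *Grin2c* and *Slc17a6* passed the threshold whichever naïve array was left out. These fits pooled the spread over stimulated and naïve arrays. With only the naïve arrays in the model, 879 genes and 2 members, *Grin2c* and *Dlg4*, were called.

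In the stimulated arrays 0 of 37 members passed the adjusted threshold with limma, against 0.414% of all genes (60 genes). At an unadjusted p under 0.05 there were 5 members (13.5%), 1 higher and 4 lower in WAR S, against 6.85% of all genes. They were *Grm2*, which was higher, and *Grin2c*, *Slc17a7*, *Dlg4* and *Shank1*, which were lower. With all arrays no member reached a fold change of 2 at an unadjusted p of at most 0.05 in either comparison, where 0.269% of genes did so in the stimulated and 1.76% in the naïve arrays. There was 1 such member, *Cnih2*, without Wistar N replicate 1, against 4.36% of all genes. With 2 Wistar S arrays the smallest 2-sided p that an exact permutation of the arrays can give is 0.0476, and in the naïve arrays it is 0.0286.

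**Figure D1:**
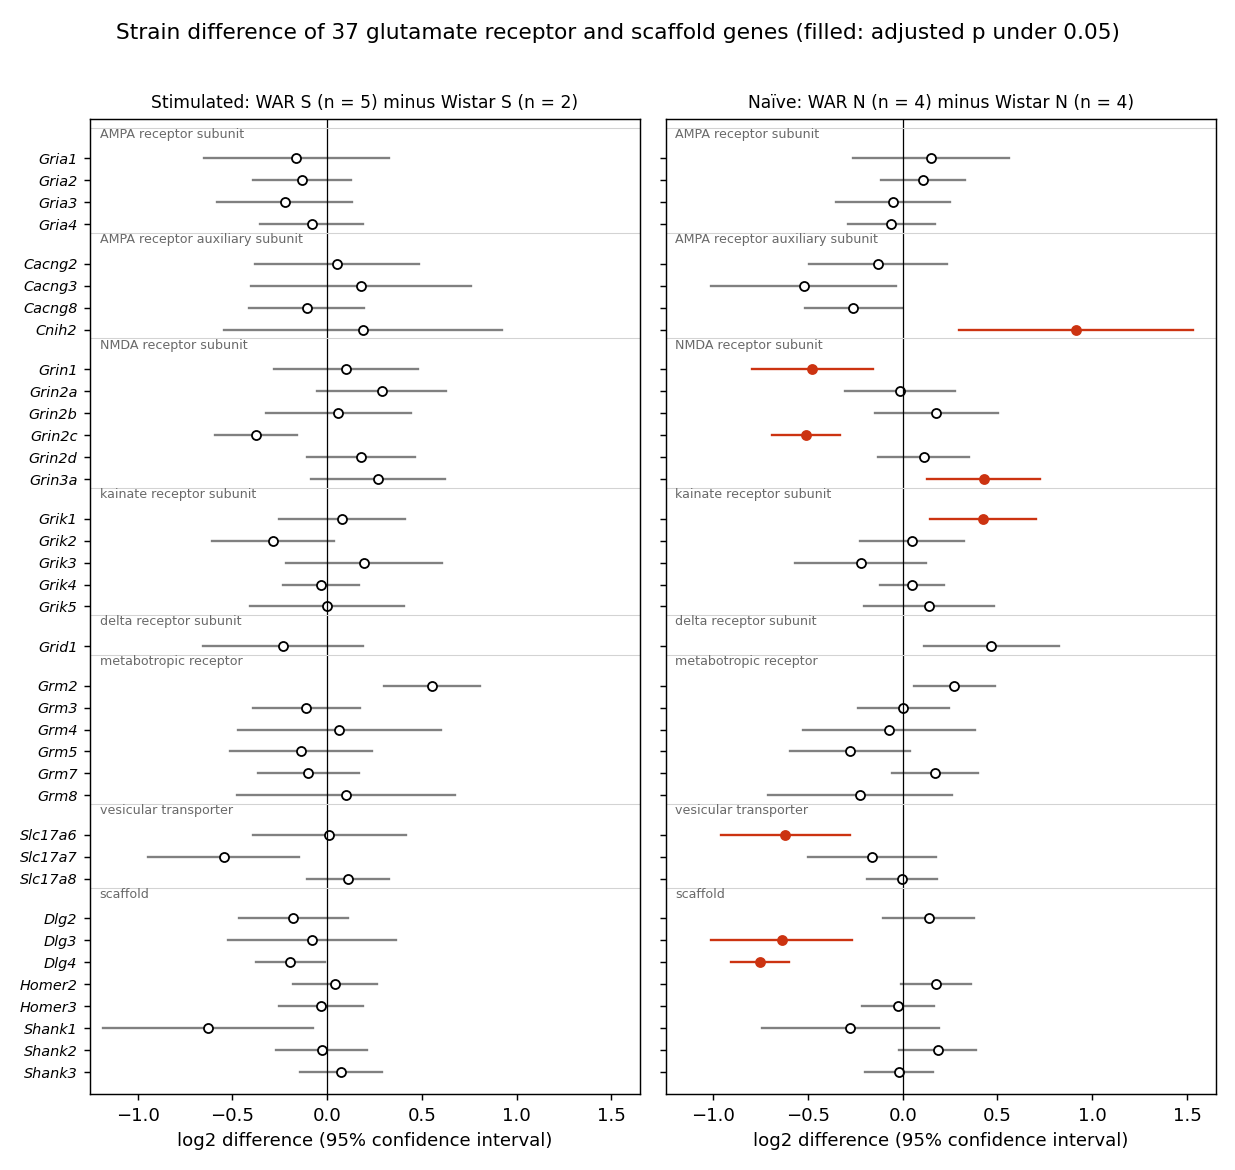
Log2 difference between WAR and Wistar (x axis) for each of the 37 members (y axis, grouped by class), in stimulated arrays on the left and in naïve arrays on the right; points are fitted differences, lines are 95% confidence intervals and filled points have an adjusted p under 0.05. The filled points are the 8 members called in the naïve arrays, and no point is filled in the stimulated arrays, where the intervals are wider. The spread of each gene was pooled over stimulated and naïve arrays. The wider stimulated intervals therefore follow from the numbers of arrays per group and do not measure the spread within the stimulated arrays.

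The classes are described beside all genes, whose median difference was 0.01 in the stimulated and 0.02 in the naïve arrays. All 4 AMPA receptor subunits had negative differences in the stimulated arrays (median -0.15) and split evenly in the naïve arrays (median 0.03), and none of them passed the threshold. The NMDA receptor subunits had medians of 0.14 in the stimulated and 0.05 in the naïve arrays, the kainate receptor subunits 0.00 and 0.05, and the metabotropic receptors -0.02 and -0.03. The AMPA receptor auxiliary subunits had medians of 0.11 and -0.20, the vesicular transporters 0.01 and -0.16, and the scaffolds -0.06 and -0.02. Over all 37 members the median was -0.03 in the stimulated and -0.01 in the naïve arrays. Without Wistar N replicate 1 the naïve medians were 0.04 for all genes and 0.03 for all members. For the classes they were -0.02 for the AMPA receptor subunits, -0.11 for their auxiliary subunits, 0.06 for the NMDA and 0.03 for the kainate receptor subunits, 0.05 for the metabotropic receptors, 0.03 for the vesicular transporters and -0.02 for the scaffolds. The called NMDA receptor subunits lay on both sides, *Grin3a* higher and *Grin1* and *Grin2c* lower in WAR N.

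The promoters of *Dlg4*, *Grin2c* and *Slc17a6* are shown because these members were lower in WAR N and passed the threshold whichever naïve array was left out. Each sequence is the 250 bases before the transcription start in the RefSeq table of assembly GRCr8, written 5′ to 3′ on the gene's strand, with matches to the searched letters in capitals. The windows lie at chr10:55239534-55239783 on the plus strand for *Dlg4*, chr10:101005139-101005388 on the minus strand for *Grin2c* and chr1:110348197-110348446 on the plus strand for *Slc17a6*. The letters searched on both strands were CCAAT, the NF-Y box, CAGCTG, an E-box, and GGGCGG, the Sp1 box.
Dlg4: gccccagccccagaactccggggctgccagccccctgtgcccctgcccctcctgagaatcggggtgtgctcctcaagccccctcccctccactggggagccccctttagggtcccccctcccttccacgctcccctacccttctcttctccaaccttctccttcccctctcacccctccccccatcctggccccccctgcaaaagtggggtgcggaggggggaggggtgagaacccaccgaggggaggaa
Grin2c: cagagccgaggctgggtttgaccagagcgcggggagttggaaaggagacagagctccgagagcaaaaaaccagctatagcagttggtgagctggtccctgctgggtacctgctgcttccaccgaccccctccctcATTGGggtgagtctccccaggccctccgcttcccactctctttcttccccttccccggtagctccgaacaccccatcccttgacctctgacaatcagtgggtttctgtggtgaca
Slc17a6: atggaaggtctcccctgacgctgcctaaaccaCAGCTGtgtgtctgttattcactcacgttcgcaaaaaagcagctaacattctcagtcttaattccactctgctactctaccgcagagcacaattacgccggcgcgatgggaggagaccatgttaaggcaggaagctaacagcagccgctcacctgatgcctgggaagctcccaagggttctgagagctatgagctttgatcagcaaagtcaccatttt
The *Grin2c* window held CCAAT on the reverse strand from 115 to 111 bases before the start, where the capitals read ATTGG. The *Slc17a6* window held CAGCTG from 218 to 213 bases before the start, and the *Dlg4* window held none of the 3. CG pairs numbered 5 in *Dlg4*, 8 in *Grin2c* and 9 in *Slc17a6*. Among the 24 of 37 members that matched an entry, CCAAT was found in 6, CAGCTG in 5 and GGGCGG in 6, and the shares over all 33469 promoters of the table were 34.0%, 12.0% and 30.5%. These matches describe letters only, and the arrays hold no measure of binding.

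Among the AMPA receptor genes, the change that passed the test was in an auxiliary subunit. *Cnih2*, which encodes a cornichon protein that slows the closing of AMPA receptors, was 11.59, 10.37, 10.14 and 9.69 in Wistar N replicates 1 to 4 and 11.58, 11.45, 10.96 and 11.46 in WAR N. Wistar N replicate 1 lay above all 4 WAR N arrays, and the other Wistar N arrays lay below all of them. The difference was 0.91 (SE 0.289, 95% confidence interval 0.29 to 1.53, adjusted p = 0.0377 with limma), and it was 1.29 (adjusted p = 2.10e-05) without Wistar N replicate 1. Leaving out Wistar N replicate 2, 3 or 4 gave 0.89, 0.81 and 0.66, and leaving out WAR N replicate 1, 2 or 4 gave 0.84, 0.89 and 0.88, and in these 6 cases the adjusted p lay between 0.0741 and 0.112. The exact permutation p over the 4 against 4 arrays was 0.143. Stimulated *Cnih2* values were 11.32 and 11.55 in Wistar S and between 11.50 and 11.83 in WAR S, and the difference of 0.19 (95% confidence interval -0.54 to 0.92) did not pass the test.

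The pore-forming AMPA receptor subunits *Gria1*, *Gria2*, *Gria3* and *Gria4* had naïve differences from -0.06 to 0.15 and stimulated differences from -0.22 to -0.08. *Gria1* was 10.45, 9.85, 10.25 and 10.37 in Wistar N and 10.67, 10.76, 10.05 and 10.04 in WAR N, so the groups overlapped. *Gria3* was 10.59 and 10.78 in Wistar S and 10.45, 10.54, 10.37, 10.33 and 10.62 in WAR S, with overlap. The transmembrane AMPA receptor regulatory subunit *Cacng8* was 7.89 in Wistar N replicate 1 and 8.40, 8.49 and 8.42 in the other Wistar N arrays, and 8.02, 7.90, 8.01 and 8.22 in WAR N. Its naïve difference was -0.26 (adjusted p = 0.137), and without Wistar N replicate 1 it was -0.40 (adjusted p = 0.00198), where the groups no longer overlapped. *Cacng3*, another subunit of that family, had a naïve difference of -0.52 (adjusted p = 0.120), and of -0.29 without that array.

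The NMDA receptor genes held called members in both directions. *Grin2c* encodes the GluN2C subunit, which gives receptors of low conductance and is known best from cerebellar granule cells and glia. It was 7.75, 8.17, 8.17 and 8.03 in Wistar N and 7.57, 7.45, 7.48 and 7.59 in WAR N, so all WAR N arrays lay below all Wistar N arrays. The difference was -0.51 (SE 0.0845, 95% confidence interval -0.69 to -0.33, adjusted p = 0.00172 with limma, exact permutation p = 0.0286), and -0.60 without Wistar N replicate 1. In the stimulated arrays *Grin2c* was 8.17 and 8.15 in Wistar S and 7.77, 7.73, 7.82, 7.74 and 7.87 in WAR S, again with all WAR arrays below both Wistar arrays. The stimulated difference was -0.37 (SE 0.0999, 95% confidence interval -0.59 to -0.16). Its adjusted p was 0.174 with all 4 groups in the model, and the gene passed the threshold when only the stimulated arrays were in the model.

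*Grin1*, the obligatory GluN1 subunit of all NMDA receptors, was 10.25, 10.18, 10.46 and 10.18 in Wistar N and 10.01, 9.86, 9.32 and 9.97 in WAR N. The naïve groups did not overlap, and WAR N replicate 3 was the lowest array. The difference was -0.48 (SE 0.150, adjusted p = 0.0368 with limma, exact permutation p = 0.0286). It was -0.48 (adjusted p = 0.0276) without Wistar N replicate 1, -0.50 without Wistar N replicate 2, -0.41 without 3 and -0.50 without 4, and the adjusted p lay between 0.056 and 0.110 in the last 3 cases. Leaving out WAR N replicate 2 gave -0.50 (adjusted p = 0.0538) and leaving out WAR N replicate 3 gave -0.32 (adjusted p = 0.0980). Stimulated *Grin1* values were 9.92 and 10.09 in Wistar S and 10.11, 10.15, 10.06, 9.79 and 10.42 in WAR S, with overlap and a difference of 0.10.

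*Grin3a*, which encodes a GluN3 subunit that lowers calcium entry through the receptor, was 8.04, 8.10, 8.38 and 8.14 in Wistar N and 8.79, 8.75, 8.29 and 8.53 in WAR N. The groups overlapped at WAR N replicate 3 and Wistar N replicate 3. The difference was 0.43 (SE 0.140, adjusted p = 0.0429 with limma, exact permutation p = 0.0571), and without Wistar N replicate 1 it was 0.39 (adjusted p = 0.0503). Leaving out Wistar N replicate 2 or 4 gave 0.41 and 0.42, and leaving out WAR N replicate 1, 2 or 4 gave 0.36, 0.37 and 0.45, and the adjusted p in these 5 cases lay between 0.0655 and 0.122. After sound, *Grin3a* was 8.56 and 8.41 in Wistar S and 8.76, 8.67, 8.53, 8.63 and 9.18 in WAR S, with a difference of 0.27 that did not pass the test. The other NMDA receptor subunits *Grin2a*, *Grin2b* and *Grin2d* had naïve differences from -0.01 to 0.18 and stimulated differences from 0.06 to 0.29, none past the threshold.

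**Figure D2:**
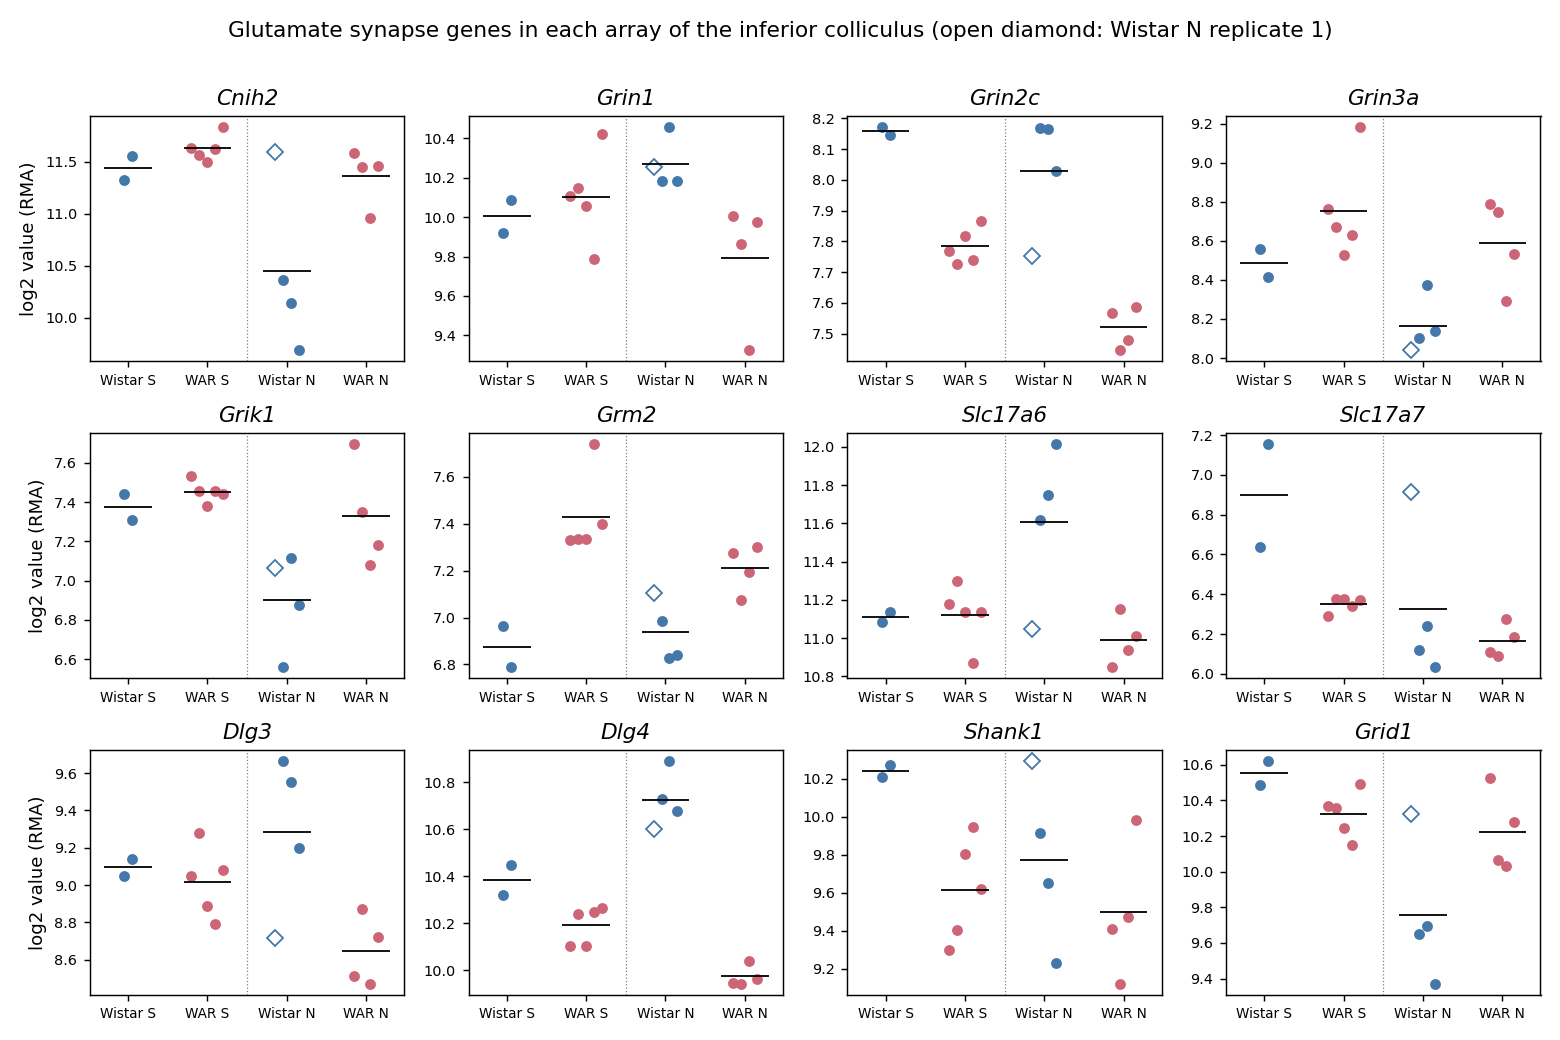
Log2 intensity (y axis, a separate scale for each gene that does not start at 0) on each array of the 4 groups (x axis) for 12 members; points are arrays, bars are group means and the open diamond is Wistar N replicate 1. For *Dlg4*, *Grin2c* and *Grin1* all WAR N points lie below all Wistar N points, and for *Cnih2* the open diamond lies with the WAR N arrays.

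Of the kainate receptor genes, *Grik1* passed the test in the naïve arrays. *Grik1*, the GluK1 subunit, was 7.07, 6.56, 7.11 and 6.87 in Wistar N and 7.70, 7.35, 7.08 and 7.18 in WAR N, and the groups overlapped at WAR N replicate 3. The difference was 0.42 (SE 0.131, adjusted p = 0.0344 with limma, exact permutation p = 0.0571), and 0.48 (adjusted p = 0.0117) without Wistar N replicate 1. Leaving out Wistar N replicate 2 or 4 gave 0.31 and 0.41, and leaving out WAR N replicate 1 or 2 gave 0.30 and 0.42, with adjusted p between 0.0662 and 0.104 in these 4 cases. After sound, *Grik1* was 7.44 and 7.31 in Wistar S and between 7.38 and 7.53 in WAR S, with overlap and a difference of 0.08.

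*Grik2*, the GluK2 subunit, was 10.71 and 10.76 in Wistar S and 10.35, 10.51, 10.35, 10.51 and 10.51 in WAR S, without overlap. The difference of -0.29 did not pass the test (adjusted p = 0.855 with limma, exact permutation p = 0.0476), and in the naïve arrays it was 0.05. *Grik5*, the GluK5 subunit, was 9.38 in Wistar N replicate 1 and 8.60, 8.62 and 8.35 in the other Wistar N arrays, and 8.98, 8.69, 8.94 and 8.91 in WAR N. Wistar N replicate 1 lay above and the other Wistar N arrays lay below all WAR N arrays, so that the difference was 0.14 (adjusted p = 0.571) with the array and 0.35 (adjusted p = 0.00359) without it. *Grik3* had differences of -0.22 in the naïve and 0.20 in the stimulated arrays, and *Grik4* of 0.05 and -0.03.

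*Grid1* encodes the delta receptor GluD1, an organiser of synapses that does not open to glutamate. It was 10.32, 9.65, 9.69 and 9.37 in Wistar N and 10.53, 10.06, 10.03 and 10.28 in WAR N, with Wistar N replicate 1 inside the WAR N range. The difference was 0.47 (adjusted p = 0.0606 with limma), and 0.65 (adjusted p = 6.14e-04) without Wistar N replicate 1. A second, dimmer probe set of *Grid1* gave -0.75 (SE 0.148) in the naïve arrays and 0.02 in the stimulated arrays, so the direction of this gene depends on the probe set. After sound, the brightest probe set of *Grid1* was 10.49 and 10.62 in Wistar S and 10.37, 10.36, 10.25, 10.15 and 10.49 in WAR S, with a difference of -0.23.

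No metabotropic receptor passed the test with all arrays, and *Grm2* came nearest in the stimulated arrays. *Grm2* encodes mGlu2, a receptor on the releasing terminal that restrains transmitter release. It was 6.96 and 6.79 in Wistar S and 7.33, 7.34, 7.34, 7.74 and 7.40 in WAR S, so all WAR S arrays lay above both Wistar S arrays. The difference was 0.55 (SE 0.118, 95% confidence interval 0.30 to 0.81, adjusted p = 0.0620 with limma, exact permutation p = 0.0476). It was 0.64 without Wistar S replicate 1 and 0.47 without Wistar S replicate 2. In the naïve arrays *Grm2* was 7.10, 6.99, 6.83 and 6.84 in Wistar N and 7.28, 7.07, 7.19 and 7.30 in WAR N, and the groups overlapped at Wistar N replicate 1. The naïve difference was 0.27 (adjusted p = 0.0673), and 0.33 (adjusted p = 0.0176) without that array.

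*Grm5*, the postsynaptic receptor mGlu5, was 10.18 in Wistar N replicate 1 and 10.64, 10.99 and 10.52 in the other Wistar N arrays, and 10.46, 10.45, 10.13 and 10.17 in WAR N. The difference was -0.28 (adjusted p = 0.201 with limma), and -0.41 (adjusted p = 0.0190) without Wistar N replicate 1, where the groups did not overlap. *Grm8*, the presynaptic receptor mGlu8, was 7.36 in Wistar N replicate 1, 8.48, 8.47 and 8.79 in the other Wistar N arrays and 8.29, 8.20, 7.92 and 7.80 in WAR N. Its difference was -0.22 (adjusted p = 0.518) with the array, which lay below all others, and -0.53 (adjusted p = 0.00241) without it. *Grm3*, *Grm4* and *Grm7* had naïve differences from -0.07 to 0.17 and stimulated differences from -0.11 to 0.06.

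The vesicular transporters differed by member and by comparison. *Slc17a6*, which encodes VGLUT2, the main transporter of subcortical glutamate neurons, was 11.05, 11.62, 11.75 and 12.01 in Wistar N and 10.85, 11.15, 10.94 and 11.01 in WAR N. WAR N replicate 2 lay above Wistar N replicate 1, and the other 3 Wistar N arrays lay above all WAR N arrays. The difference was -0.62 (SE 0.159, adjusted p = 0.0143 with limma, exact permutation p = 0.0571), and -0.81 (adjusted p = 5.01e-05) without Wistar N replicate 1. With each of the other naïve arrays left out in turn, the adjusted p of *Slc17a6* lay between 0.0194 and 0.0464. It did not pass the threshold when only the naïve arrays were in the model. After sound, *Slc17a6* was 11.09 and 11.13 in Wistar S and 11.18, 11.30, 11.13, 10.87 and 11.13 in WAR S, with overlap and a difference of 0.01 (95% confidence interval -0.39 to 0.41).

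*Slc17a7*, which encodes VGLUT1, the transporter of cortical and cerebellar granule cell terminals, was 6.64 and 7.16 in Wistar S and 6.29, 6.37, 6.38, 6.34 and 6.37 in WAR S. The Wistar S arrays differed from each other by more than the whole WAR S range. The difference was -0.55 (SE 0.186, 95% confidence interval -0.95 to -0.15, adjusted p = 0.392 with limma, exact permutation p = 0.0476). It was -0.80 without Wistar S replicate 1 and -0.29 without Wistar S replicate 2. *Gabra6*, a defining marker of cerebellar granule cells, was named after its values were seen. It was also higher in both Wistar S arrays (6.01 and 6.51) than in WAR S (5.44 to 5.66). The *Gabra6* difference was -0.68 (adjusted p = 0.0756 with limma). Over the 9 granule cell markers the mean level was 6.64 to 6.73 in Wistar S and 6.50 to 6.62 in WAR S. None of them passed the test, and 8 of 9 differences were negative. Apart from *Gabra6* and *Neurod1* (-0.33), the differences lay between -0.12 (*Zic1*) and 0.06 (*Cbln1*). In the naïve arrays *Slc17a7* was 6.92 in Wistar N replicate 1, 6.12, 6.24 and 6.03 in the other Wistar N arrays and 6.11, 6.09, 6.27 and 6.18 in WAR N, and the sign of its difference turned from -0.16 to 0.03 without that array. Naïve *Gabra6* was 5.22 in Wistar N replicate 1 and 4.90, 5.20 and 4.84 in the other Wistar N arrays. The mean of the 9 markers was 6.57 in Wistar N replicate 1 and 6.24 to 6.49 in the others. The part of such cells in the *Slc17a7* values was not tested. *Slc17a8*, which encodes VGLUT3, had differences of 0.11 in the stimulated and 0.00 in the naïve arrays.

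Among the scaffolds, the 2 called members were PSD-95 and its relative SAP102, and both were lower in WAR N. *Dlg4* encodes PSD-95, the main scaffold of the postsynaptic density, which binds NMDA receptors and AMPA receptor auxiliary subunits. It was 10.60, 10.73, 10.89 and 10.68 in Wistar N and 9.95, 9.94, 10.04 and 9.97 in WAR N. The groups were far apart relative to their spread, with means of 10.73 ± 0.122 (SD, n = 4) and 9.97 ± 0.0453 (SD, n = 4), and Wistar N replicate 1 lay with its own group. The difference was -0.75 (SE 0.0713, 95% confidence interval -0.90 to -0.60, adjusted p = 6.69e-05 with limma, exact permutation p = 0.0286), and -0.79 without Wistar N replicate 1. In the stimulated arrays *Dlg4* was 10.32 and 10.45 in Wistar S and 10.10, 10.24, 10.10, 10.25 and 10.26 in WAR S, without overlap. The stimulated difference was -0.19 (SE 0.0844, adjusted p = 0.665), and it was -0.26 without Wistar S replicate 1 and -0.13 without Wistar S replicate 2.

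*Dlg3*, which encodes SAP102, a scaffold of NMDA receptors, was 8.72, 9.67, 9.55 and 9.20 in Wistar N and 8.51, 8.87, 8.47 and 8.72 in WAR N. Wistar N replicate 1 lay within the WAR N range and the other Wistar N arrays above it. The difference was -0.64 (SE 0.174, adjusted p = 0.0193 with limma, exact permutation p = 0.0857), and -0.83 (adjusted p = 1.99e-04) without Wistar N replicate 1. Leaving out Wistar N replicate 2 or 3 gave -0.51 and -0.55, and leaving out WAR N replicate 1 or 3 gave -0.60 and -0.58, with adjusted p between 0.0563 and 0.0664 in these 4 cases. After sound, *Dlg3* was 9.05 and 9.14 in Wistar S and 9.05, 9.28, 8.89, 8.79 and 9.08 in WAR S, with overlap and a difference of -0.08.

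*Shank1*, which encodes a scaffold that links receptor complexes to actin, was 10.21 and 10.27 in Wistar S and 9.30, 9.40, 9.80, 9.95 and 9.62 in WAR S, without overlap. The difference was -0.63 (SE 0.258, 95% confidence interval -1.18 to -0.07, adjusted p = 0.605 with limma, exact permutation p = 0.0476), the most negative of the stimulated members. In the naïve arrays *Shank1* was 10.29, 9.92, 9.65 and 9.23 in Wistar N and 9.41, 9.12, 9.47 and 9.98 in WAR N, with overlap and a difference of -0.28, or -0.10 without Wistar N replicate 1. *Shank2* was 7.85 in Wistar N replicate 1, 7.51, 7.56 and 7.30 in the other Wistar N arrays and 7.83, 7.75, 7.69 and 7.67 in WAR N, and its difference was 0.18 (adjusted p = 0.185) with and 0.28 (adjusted p = 0.00768) without that array. *Dlg2*, *Homer2*, *Homer3* and *Shank3* had naïve differences from -0.03 to 0.18 and stimulated differences from -0.18 to 0.07.

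Whether groups overlapped was counted over all members. In the naïve arrays 3 of 37 (8.11%) did not overlap, *Grin1*, *Grin2c* and *Dlg4*, all lower in WAR N, against 13.4% of all genes, 7.93% higher and 5.51% lower. Without Wistar N replicate 1 there were 13 of 37 (35.1%), 5 higher and 8 lower, against 38.2% of all genes, 21.7% higher and 16.6% lower. In the stimulated arrays 10 of 37 (27.0%) did not overlap, against 20.7% of all genes, 12.4% higher and 8.22% lower. *Grm2*, *Slc17a8* and *Shank3* were the higher ones, and *Grin2c*, *Grik2*, *Grm7*, *Slc17a7*, *Dlg2*, *Dlg4* and *Shank1* the lower ones. Some gaps were narrow. The highest Wistar S and lowest WAR S values were 6.16 and 6.18 for *Slc17a8*, 7.90 and 7.92 for *Shank3* and 6.96 and 7.33 for *Grm2*. For *Grm7* the lowest Wistar S value was 10.415 and the highest WAR S value 10.3997. *Grin2c* and *Dlg4* were lower without overlap in both comparisons (2 of 37 members, 5.41%), against 1.37% of all genes. Without Wistar N replicate 1 there were again 2 members, against 2.47% of all genes.

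**Figure D3:**
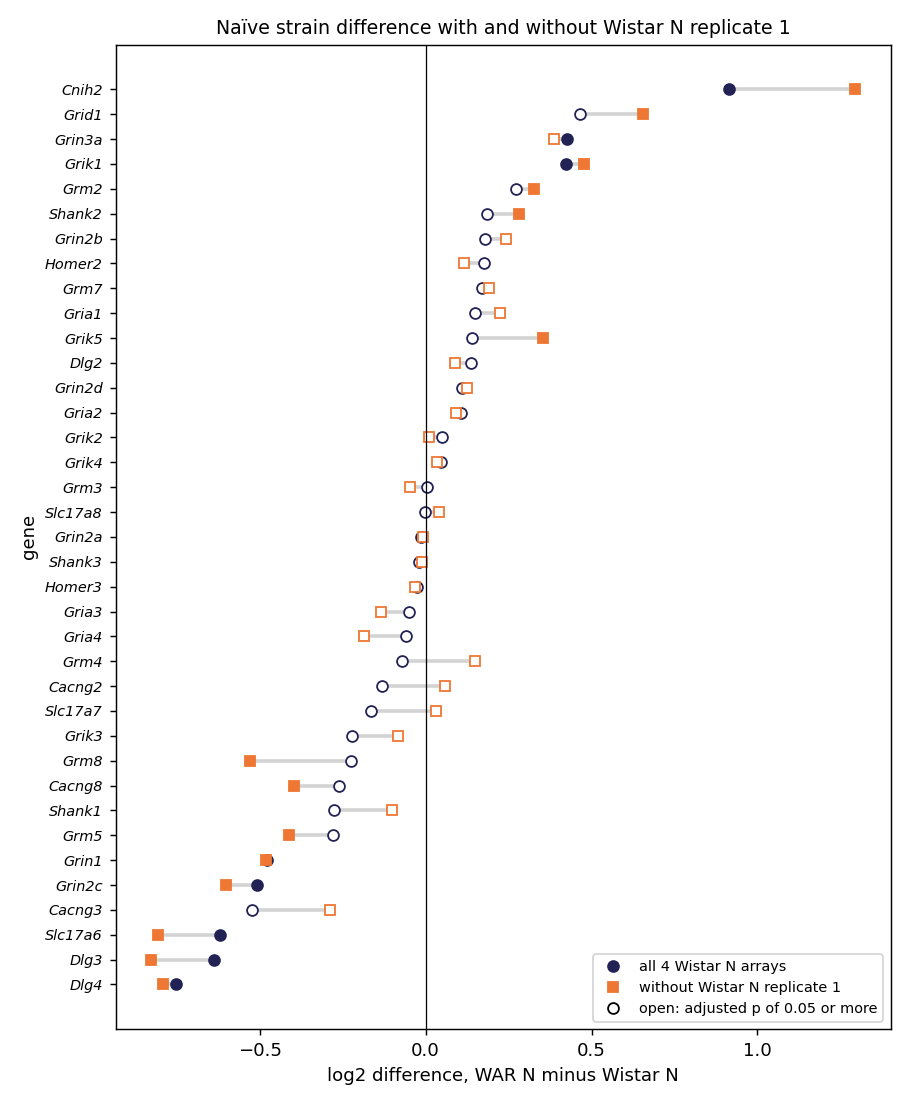
Naïve log2 difference between WAR N and Wistar N (x axis) for the 37 members (y axis), with all 8 naïve arrays and without Wistar N replicate 1; a line joins the 2 values of a gene and filled marks have an adjusted p under 0.05. Leaving the array out raised the count of filled marks from 8 to 14, moved *Cnih2* from 0.91 to 1.29 and moved *Dlg4* only from -0.75 to -0.79.

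The strain difference of the stimulated arrays was then set against that of the naïve arrays. None of the 37 members passed the test of the difference between the differences with limma, against 0.103% of all genes, and at an unadjusted p under 0.05 there were 4 members (10.8%) against 15% of all genes. These were *Dlg4*, with 0.56 (SE 0.111, adjusted p = 0.0639), *Slc17a6* with 0.63, *Grin1* with 0.58 and *Grid1* with -0.70. A positive value means that WAR lay less far below or further above Wistar in the stimulated arrays. Without Wistar N replicate 1 there were 7 of 37 members (18.9%) against 20.4% of all genes. *Slc17a6* (0.82), *Dlg3* (0.75), *Grm8* (0.63) and *Dlg4* (0.60) were positive and *Cnih2* (-1.11), *Grid1* (-0.89) and *Slc17a7* (-0.58) negative. Both *Grid1* values come from its brightest probe set. The dimmer probe set of *Grid1* gave -0.75 in the naïve and 0.02 in the stimulated arrays. The signs of the stimulated and naïve differences were the same in 17 of 37 members (45.9%), against 58.1% of all genes, and without Wistar N replicate 1 in 20 of 37 (54.1%), against 57.3%.

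Other genes of the glutamate synapse were described from 3 lists. Their counts stand beside 20.9% of all genes called in the naïve and 0.414% in the stimulated arrays. Without Wistar N replicate 1 the naïve share was 41.1%. Of 8 measured other receptor and auxiliary genes, 2 passed the test in the naïve arrays, both higher in WAR N: *Neto1* (0.55, adjusted p = 0.00472 with limma) and *Neto2* (0.55, adjusted p = 0.0159), which encode auxiliary subunits of kainate receptors. They gave 0.63 and 0.71 without Wistar N replicate 1, and no other gene of this list was called. *Neto1* was 8.84, 8.40, 8.64 and 8.53 in Wistar N and 9.41, 9.19, 9.10 and 8.93 in WAR N, without overlap. Of 33 measured other postsynaptic density genes, 4 were higher and 2 lower in WAR N. The adhesion genes *Lrrtm2* (0.92) and *Lrrtm3* (0.63), the secreted synaptic protein *Lgi1* (0.76) and the scaffold *Lrrc7* (0.44) were higher, and *Nsf* (-0.81), an ATPase of membrane fusion, and *Ppp3cb* (-0.81), a catalytic subunit of calcineurin, were lower. This list had 7 higher and 4 lower without Wistar N replicate 1. None of the genes of these 2 lists passed the test in the stimulated arrays.

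Of 12 measured genes of glutamate uptake and metabolism, 5 were lower and none was higher in WAR N, and 1 was lower in WAR S. The counts were 2 higher and 5 lower without Wistar N replicate 1. Of all genes, 20.9% were called in the naïve arrays with and 41.1% without that array. *Glud1*, the glutamate dehydrogenase of mitochondria, was lower in both comparisons. It was 11.84 and 11.89 in Wistar S and between 11.12 and 11.22 in WAR S, and 11.37, 11.79, 11.93 and 11.86 in Wistar N and 10.86, 11.05, 10.78 and 10.76 in WAR N. The groups did not overlap in either comparison, and the differences were -0.70 (adjusted p = 0.0212 with limma) in the stimulated and -0.87 (adjusted p = 3.27e-04) in the naïve arrays, and the naïve call held without Wistar N replicate 1 (adjusted p = 2.11e-07). The other 4 genes lower in WAR N were *Got1* (-0.72), an aspartate aminotransferase, the glutamate uptake carriers *Slc1a3* (-0.45) and *Slc1a6* (-0.36), and *Slc38a2* (-0.40), an amino acid carrier.

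Markers of other cell types were read in the same arrays, where 20.9% of all genes were called in the naïve and 0.414% in the stimulated comparison. Without Wistar N replicate 1 the naïve share was 41.1%. In bulk tissue fewer cells of a type and less RNA per cell cannot be told apart. All 13 endothelial markers had positive differences in both comparisons, and 7 passed the test in the naïve and 3 in the stimulated arrays. Their mean level was 8.22 in Wistar N replicate 1, 7.23 to 7.26 in the other Wistar N arrays, 7.98 to 8.52 in WAR N, 7.47 to 7.53 in Wistar S and 8.13 to 8.55 in WAR S. Of 11 measured astrocyte markers, 5 were lower and none was higher in WAR N, with mean levels of 11.04 to 11.24 in Wistar N and 10.61 to 10.81 in WAR N. Of these 11, 10 had negative differences in the stimulated arrays, none past the test, with mean levels of 11.26 to 11.27 in Wistar S and 10.78 to 11.07 in WAR S. Microglia markers had 4 of 10 higher in WAR N and 1 of 10 higher in WAR S, and oligodendrocyte markers had 1 higher and 1 lower of 11 in WAR N. Without Wistar N replicate 1 the naïve counts were 11 endothelial markers higher, 6 astrocyte markers lower, 4 microglia markers higher and 2 lower, and 3 oligodendrocyte markers higher and 1 lower.

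Neuronal markers moved in both directions. Among all genes the share called in the naïve arrays was 20.9%, and 41.1% without Wistar N replicate 1. Of 18 general neuron markers, 1 was higher and 5 were lower in WAR N, among them *Syp*, a protein of synaptic vesicles, by -0.53 (adjusted p = 0.00219 with limma). The counts were 4 higher and 5 lower without Wistar N replicate 1. Their mean level was 10.86 to 11.21 in Wistar N and 10.73 to 11.00 in WAR N, with overlap, and 10.95 to 11.06 in Wistar S and 11.04 to 11.14 in WAR S. Of 5 measured markers of inhibitory neurons, 3 were lower and 1 was higher in WAR N, with mean levels of 9.47 to 9.86 in Wistar N and 9.01 to 9.32 in WAR N. The stimulated arrays did not show these markers lower in WAR S. There 3 of the 5 differences were positive and 2 negative, with a median of 0.13. None of them passed the test, and the mean levels of Wistar S and WAR S overlapped. In the naïve arrays 1 of 4 tectal and 1 of 9 granule cell markers passed the test, both lower in WAR N. Of 5 Purkinje cell markers 2 passed, both higher, and none of 3 forebrain markers did. Without Wistar N replicate 1, 1 tectal marker was lower, and granule cell markers had 2 higher and 1 lower. Purkinje cell markers then had 3 higher and 2 lower, and 1 forebrain marker was lower. Those of inhibitory neurons were again 3 lower and 1 higher. The part of these cell types in the differences of the glutamate receptor and scaffold genes was not tested.

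The sample labels also fall into 2 styles of numbering, which no source names as batches and which both strains share in the naïve arrays. *Dlg4* was lower in WAR N within each style, by -0.69 (adjusted p = 0.0396 with limma) over the 2 against 2 arrays of the first and by -0.81 (adjusted p = 0.00308) over those of the other. Of the 8 members called with all arrays, *Dlg4* was the only one called within the first style, which holds Wistar N replicate 1 and gave 217 genes in all. Within the other style 3775 genes and 9 members were called, among them *Cnih2*, *Grin2c*, *Slc17a6*, *Dlg3* and *Dlg4* of the 8. *Grin2c* gave -0.38 and -0.63, *Slc17a6* -0.53 and -0.71, *Cnih2* 0.87 and 0.95, *Dlg3* -0.27 and -1.01, *Grin1* -0.28 and -0.67, *Grin3a* 0.68 and 0.17 and *Grik1* 0.55 and 0.30, each with the same sign in both styles. The 2 Wistar S arrays are of the first style only, and within it the stimulated differences were -0.37 for *Grin2c*, 0.48 for *Grm2*, -0.55 for *Slc17a7*, -0.18 for *Dlg4* and -0.80 for *Shank1*.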

How the data were processed

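RNA of the inferior colliculus was measured on 15 Affymetrix Rat Gene 1.0 ST arrays. The authors deposited log2 values per probe set, made by RMA (background correction, quantile normalisation and probe summary), of a version that the sources leave unnamed. Of 29214 probe sets, 15310 had 1 gene symbol in the platform table, 323 several and 13581 none. The brightest probe set over all arrays was kept for each of 14506 genes, with no filter on low values, and 0 columns were left unused. The number of arrays limits the precision.

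Strains were compared by fitting 4 group means to all arrays at once in limma (version 3.58.1, under R 4.3.3, moderated by eBayes). P-values were adjusted by Benjamini and Hochberg's method across the genes, with a threshold of 0.05. The difference between the strain differences was a contrast of the same fit. Two-sided exact permutation tests over arrays were run for single members. The SAM test of the methods was not run, and its limits (fold change of at least 2, p of at most 0.05) were counted on the limma fit. Array values or their range were printed for members past the threshold and for the largest difference of each class, at least in the comparison concerned. Other listed genes past the threshold in stimulated arrays or among the 4 smallest p-values of a list in naïve arrays could be named. *Cacng8*, *Grik5*, *Grm8* and *Shank2* were added because they passed the threshold without Wistar N replicate 1. These 4, *Lrrc7*, *Lgi1*, *Slc38a2*, *Gabra6*, *Neurod1* and the tectal and forebrain markers fall outside this rule and were named after their values were seen. The members, lists and alternatives were chosen with earlier results of these data known. The script was tested on simulated data.

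Alternatives were the groups in the model, trend and robust options, array weights, cyclic loess, the probe set rule, a filter on dim genes, the label styles, the replicate block and each array left out.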

Additional observations from a re-analysis of the deposited data

Results flagged for a closer look

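In 60 groups of 4 or 5 arrays over the 20 members printed by array, 4 held an array whose gap to the nearest other array was large for the range of its group, and chance gives about 1 in 20 such groups. *Cacng8* was 7.89 on Wistar N replicate 1 and 8.40 to 8.49 on the other Wistar N arrays. *Grm2* was 7.74 on WAR S replicate 4 and 7.33 to 7.40 on the other WAR S arrays. *Grm8* was 8.52 on WAR S replicate 1 and 8.36 on each of the other WAR S arrays, which share 1 identical value. *Shank2* was 7.78 on WAR S replicate 3 and 7.95 to 7.98 on the other WAR S arrays.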

How the results depend on the processing

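Of 20 naïve alternatives, *Dlg4* passed the threshold in 20 (-0.82 to -0.69, adjusted p 1.23e-06 to 0.0396), *Grin2c* in 19, *Slc17a6* in 18, *Dlg3* in 14, *Cnih2* and *Grik1* in 12, and *Grin1* and *Grin3a* in 10, and the causes of the changes below were not tested. When the model held the 2 compared groups alone, 274 genes and 1 member (*Grin2c*) were called in the stimulated arrays and 879 genes and 2 members (*Grin2c* and *Dlg4*) in the naïve arrays. Array weights gave 1433 genes and 7 members in the stimulated arrays, 4667 genes and 12 members in the naïve arrays, and 3353 genes and 6 members for the difference between the differences, for which trend and robust options gave 9 genes and cyclic loess 42. The first label style alone gave 14 stimulated genes, and 217 naïve genes and 1 member (*Dlg4*), and the other style 3775 naïve genes and 9 members. Fold change limits gave 39 stimulated and 256 naïve genes and 0 naïve members, and all probe sets gave 5355 naïve probe sets. With only the naïve arrays in the model and without Wistar N replicate 1, chosen after seeing the data, 4784 genes and 15 members were called. Leaving out 1 array gave 7 to 50 stimulated genes (13 and 7 without Wistar S replicates 1 and 2) and 0 to 0 members, 1987 to 5968 naïve genes and 4 to 14 members, and 0 to 2956 genes and 0 to 7 members for the difference between the differences, both highest without Wistar N replicate 1.

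The replicate block gave 16 stimulated genes, 2490 naïve genes and 7 naïve members (*Grin1* was lost), and 0 genes for the difference between the differences. Same-numbered arrays did not deviate together (correlations 0.03 and -0.05 in the stimulated and -0.31 to 0.06 in the naïve arrays). So few arrays cannot settle whether the numbers pair the samples. Signs also turned, in *Grid1*, *Grm5* and *Grm8* from differences past 0.2 in size. In the stimulated arrays these were *Gria1* (0.0385 with the label style as a block, 0.0314 in the first style), *Grik5* (0.0254, 0.0167, and 0.0428 with the replicate block), *Shank2* (1.9993e-04, and 0.0354 with the replicate block), *Slc17a6* (-0.0374 with the replicate block), *Dlg3* (0.0401 in the first style) and *Grid1* (0.0222 with its other probe set, chosen after seeing the data). Leaving out 1 array gave -0.0265 to 0.0125 for *Grik5*, -0.0263 to 0.223 for *Grm8*, -0.0319 to 0.0762 for *Slc17a6* and -0.0426 to 0.0056 for *Shank2*. In the naïve arrays the first style gave 0.0622 for *Gria3*, -0.0341 for *Grik5*, 0.108 for *Grm5* and 0.168 for *Grm8*, the other style -0.0072 for *Gria1* and 0.0471 for *Slc17a7*, array weights -0.0627 for *Grik2*, the mean of probe sets -0.143 and the other probe set -0.753 for *Grid1*, and the naïve-only model without Wistar N replicate 1 gave 0.0324 for *Slc17a7*. Leaving out 1 naïve array gave -0.134 to 0.0735 for *Gria3*, -0.0886 to 0.166 for *Grik2* and -0.261 to 0.0324 for *Slc17a7*.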
